A study of Mus musculus with 6 samples.

Results

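DNAJ proteins are co-chaperones of Hsp70. Each carries a J domain, which makes Hsp70 split ATP and clamp onto an unfolded protein that the co-chaperone has often delivered. Class A members add a glycine- and phenylalanine-rich stretch and a zinc finger, class B members keep the glycine- and phenylalanine-rich stretch without the zinc finger, and class C members share only the J domain and work in many compartments, from the ribosome to mitochondria and vesicles. In striated muscle these proteins are known for handling Z-disc clients and for mitochondrial import, and mutations in human DNAJB6 and DNAJB4 cause myopathy. The genes described here are all rows of the expression table whose symbol starts with Dnaja, Dnajb or Dnajc. They number 45 of 22481 symbols, with 4 in class A, 13 in class B and 28 in class C. J proteins that carry other symbols are outside this rule, and 3 of them (Sec63, Hscb and Gak) are given with the partner genes.

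RNA came from the quadriceps of mice in 2 groups of 3 libraries each. The control mice had the genotype Fbxw7 flox/flox with no Cre, and the knockout mice the genotype MCK-Cre+/-, Fbxw7 flox/flox. FBXW7 is an F-box protein that picks targets for an SCF-type ubiquitin ligase. The muscle creatine kinase promoter drives Cre in muscle fibres, so other cells of the tissue keep the gene, and the effect of Cre itself cannot be told apart from that of the deletion. Age and sex are not given in the labels used here, nor whether each library is a separate animal, so p-values measure the spread between these libraries.

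The targeted gene Fbxw7 (ENSMUSG00000028086) read 6.51, 6.23 and 6.36 FPKM in the controls and 4.02, 3.86 and 3.81 in the knockouts (FPKM, fragments scaled to transcript length and library depth, as the authors computed it). The groups did not overlap (exact two-sided permutation p = 0.1, the smallest that 3 libraries against 3 can give). Depth came to 8435732 to 11783855 estimated fragments in the controls and 3150438 to 6704236 in the knockouts, with knockout 1 the shallowest. Of 12 fibre markers none was at 0, 4 rose and 8 fell (5 after quantile normalization). Their summed FPKM was 84861 to 86999 in controls and 37004.5 to 39195 in knockouts. The sum does not describe each marker. Those that rose were Myh1 (means of 187 and 408), Myh2 (148 and 232), Mb (3104 and 4019) and Des (914 and 1244). Those that fell were Myh4 (4186 and 1416), Pvalb (12572.5 and 3175), Acta1, Ckm, Mylpf, Tnnt3, Actn3 and Ttn. Whether fewer fibres or less RNA per fibre lies behind a value cannot be told apart in bulk tissue. Markers of other cells moved too, beside 24.5% of all tested genes called higher and 10.1% called lower. All 5 matched B cell markers rose, from a summed 0.0855 to 0.231 FPKM to 11.2 to 14.4, with Cd79a and Ms4a1 at 0 in every control, and 4 of 5 tested T cell markers rose, from 1.57 to 2.69 to 11.4 to 15.02, with Cd5 at 0 in every control. Of the tested markers 4 of 5 rose for adipocytes (sums of 396 to 410 and 436 to 502), 3 of 6 for Schwann cells (75.6 to 83.9 and 114 to 125), 4 of 6 with 1 lower for fibroblasts (456 to 482 and 497 to 579) and 1 of 2 for satellite cells (7.88 to 9.52 and 11.6 to 13.04). The satellite cell gene that rose was Cdh15, while the untested Pax7 (means of 0.303 and 0.184), Myf5 (0.570 and 0.238) and Calcr (0.104 and 0.0109) read lower in every knockout than in any control. Of 7 macrophage markers 2 rose as deposited and 0 after median-of-ratios scaling (89.1 to 97.1 and 102 to 124). Limma called 0 of 8 endothelial markers (76.6 to 82.02 and 74.97 to 84.5), with 1 higher at an unadjusted p under 0.05 and 1 called lower after median-of-ratios scaling. Of 6 smooth muscle and pericyte markers 2 fell (147 to 156 and 135 to 138), and of 5 red cell markers 3 fell (219 to 266 and 152 to 185). Their part in the DNAJ results was not tested.

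The summed deposited FPKM of the DNAJ genes was slightly higher in every knockout than in any control, and it was differently distributed. Summed over the 45 genes, FPKM was 824 ± 20.8 in controls and 887 ± 30.7 in knockouts (mean ± SD, n = 3 per group, as for all values below), and the libraries read 815, 848 and 809 against 857, 886 and 918. Without Dnaja4 the sums were 796 ± 19.7 and 788 ± 30.6. Class A read 141 ± 8.91 and 222 ± 9.83, class B 252 ± 6.98 and 233 ± 11.1, and class C 431 ± 6.74 and 432 ± 26.6. These sums describe the libraries as deposited, were not tested and were not computed under another scaling. Median-of-ratios scaling divides by 0.876 to 0.969 in controls and by 1.04 to 1.10 in knockouts. It would therefore raise the control sums and lower the knockout sums. Dnaja4 alone made up 19.8% ± 0.721 of class A FPKM in controls and 44.9% ± 1.35 in knockouts.

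**Figure D1:**
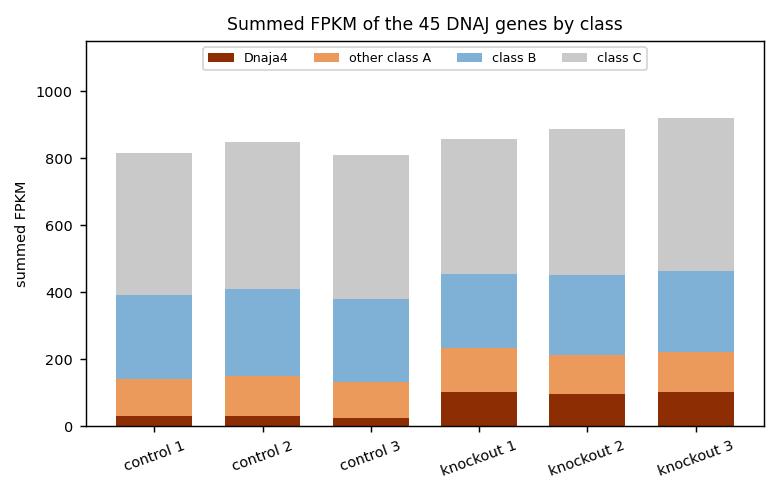
Summed FPKM of the 45 DNAJ genes in each of the 6 libraries (bars from 0), split into Dnaja4, the other 3 class A genes, class B and class C. The Dnaja4 segment is near 28 in the controls and near 100 in the knockouts, while the whole bars run from 809 to 918.

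Of the 45 members, 37 reached the mean of 0.5 FPKM needed for testing, and 12 of these rose and 3 fell in the knockout (limma on log2 values, Benjamini-Hochberg adjusted p under 0.05 over 11659 genes). That is 32.4% and 8.11% of the tested members, where 24.5% of all tested genes were called higher and 10.1% lower, so the members' shares lie close to the background. Median-of-ratios scaling lowers the median log2 difference of all genes from 0.21 to 0.01, and with it 7 members rose and 7 fell (background 14.8% and 17.3%). After quantile normalization 6 rose and 5 fell (background 14.7% and 14.5%). The median log2 difference of the members was 0.24, or 0.03 above that of all tested genes. In 16 members all 3 knockout values lay above all 3 control values (35.7% of all genes did) and in 6 below (14% of all genes). By class, as deposited, 2 of 4 class A genes rose and 0 fell (median 0.49), 2 of 9 tested class B genes rose and 1 fell (median 0.24), and 8 of 24 tested class C genes rose and 2 fell (median 0.18). After median-of-ratios scaling the counts were 2 and 1, 2 and 1, and 3 and 5 in the same order, and after quantile normalization 2 and 0, 1 and 1, and 3 and 4. The lowered class A gene was Dnaja2, the 1 lower gene of that class at an unadjusted p under 0.05 in the deposited values. Leaving out control 2 brought the number of raised members from 12 to 7, and the class C number from 8 to 3. The class C number was 4 without control 1, control 3 or knockout 2.

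**Figure D2:**
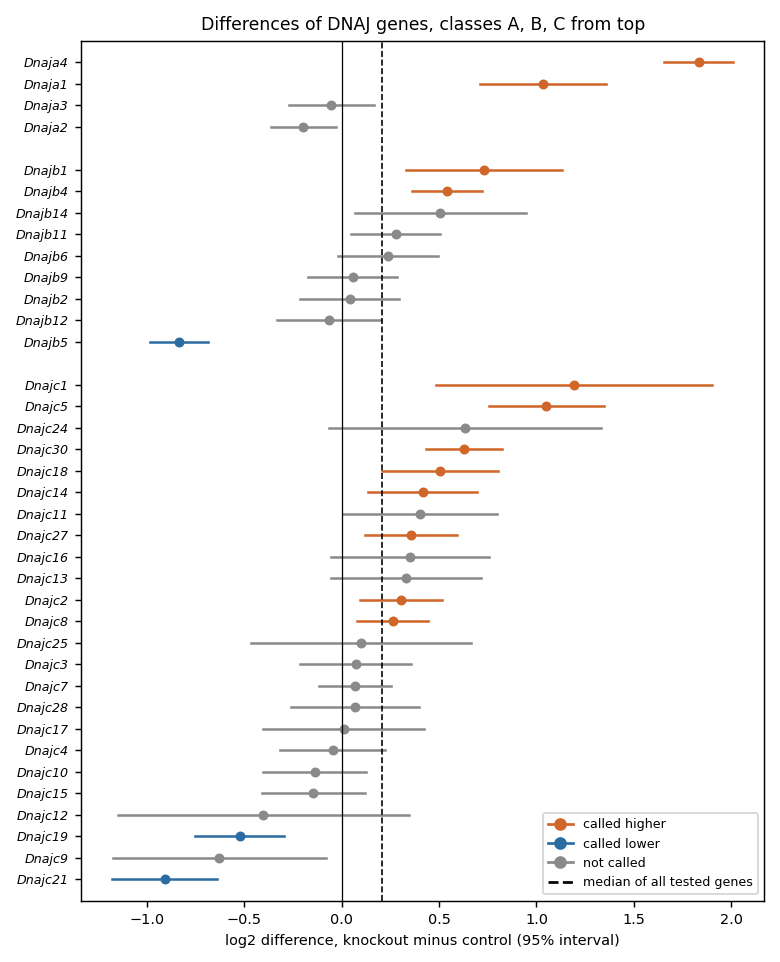
Log2 difference (knockout minus control) of the 37 tested DNAJ genes with 95% limma intervals, grouped by class and coloured by call, the dashed line marking the median of all tested genes at 0.21. Dnaja4 stands farthest to the right at 1.83 and Dnajc21 and Dnajb5 farthest to the left at -0.91 and -0.83.

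Of the 15 calls, 8 held in all 15 alternative settings. These were the rises of Dnaja4, Dnaja1, Dnajc5, Dnajc30 and Dnajb4 and the falls of Dnajc21, Dnajb5 and Dnajc19. The other 7 (Dnajb1, Dnajc1, Dnajc18, Dnajc14, Dnajc27, Dnajc2 and Dnajc8) kept their direction in all 15 but missed the threshold in at least 1, as given with each gene.

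**Figure D3:**
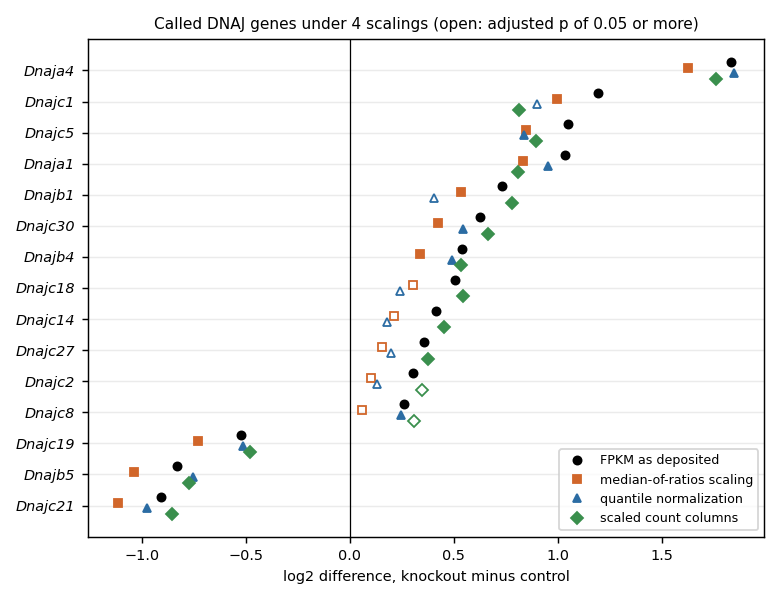
Log2 difference of the 15 called DNAJ genes under the deposited FPKM, median-of-ratios scaling, quantile normalization and the authors' scaled count columns, with open symbols where the adjusted p was 0.05 or more. Every symbol of a gene lies on the same side of 0, and the open symbols belong to genes whose deposited difference was between 0.26 and 1.19.

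Among the cytosolic class A genes, Dnaja4 and Dnaja1 rose and Dnaja2 did not pass the test. Dnaja4 (ENSMUSG00000032285, chr9:54698873-54716315, plus strand, GRCm38), a cytosolic co-chaperone inducible by heat, read 29.1, 29.0 and 25.7 in the controls and 101, 96.8 and 101 in the knockouts. The groups lay far apart and the libraries of each lay close together (27.9 ± 1.93 and 99.6 ± 2.46, log2 1.83, SE 0.08, adjusted p = 1.96e-06). It moved from the tenth highest mean of the 45 genes to the highest. Its fold was 3.57, and the log2 difference ranged over the alternatives from 1.63 (median-of-ratios) to 1.86. On the opposite strand, exons of Wdr61 cover 44.1% of the merged Dnaja4 exon bases, and whether counting used the strand is not stated in the sources used here. Wdr61 itself stood at 11.1, 10.3 and 10.7 FPKM in controls and 12.4, 13.6 and 11.3 in knockouts. Its groups did not overlap, but it was not called (log2 0.21, adjusted p = 0.153, limma). The part of Wdr61 reads in the Dnaja4 values was not tested.

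Dnaja1 (ENSMUSG00000028410, chr4:40722150-40737149, plus strand), the constitutive cytosolic class A partner of Hsp70, read 15.6, 19.9 and 16.5 in controls and 40.6, 29.4 and 37.1 in knockouts. Every knockout library was above every control library, and the knockouts varied more among themselves (17.3 ± 2.26 and 35.7 ± 5.71, log2 1.04, SE 0.14, adjusted p = 9.07e-04). A processed pseudogene, Dnaja1-ps, is annotated and could share reads with it, and exons of Smu1 on the opposite strand cover 7.05% of its exon bases. Dnaja2, also cytosolic, read 57.1, 59.4 and 55.1 in controls and 51.8, 50.4 and 47.6 in knockouts, which do not overlap, but the difference did not pass the test (log2 -0.20, SE 0.07, adjusted p = 0.0675, limma). In the control libraries Dnaja2 was the most abundant class A transcript, and in the knockout libraries Dnaja4 was. The mitochondrial class A gene Dnaja3 read 39.1, 41.5 and 34.6 against 39.5, 36.8 and 34.6, and its groups overlapped (log2 -0.05, 95% interval -0.27 to 0.17).

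**Figure D4:**
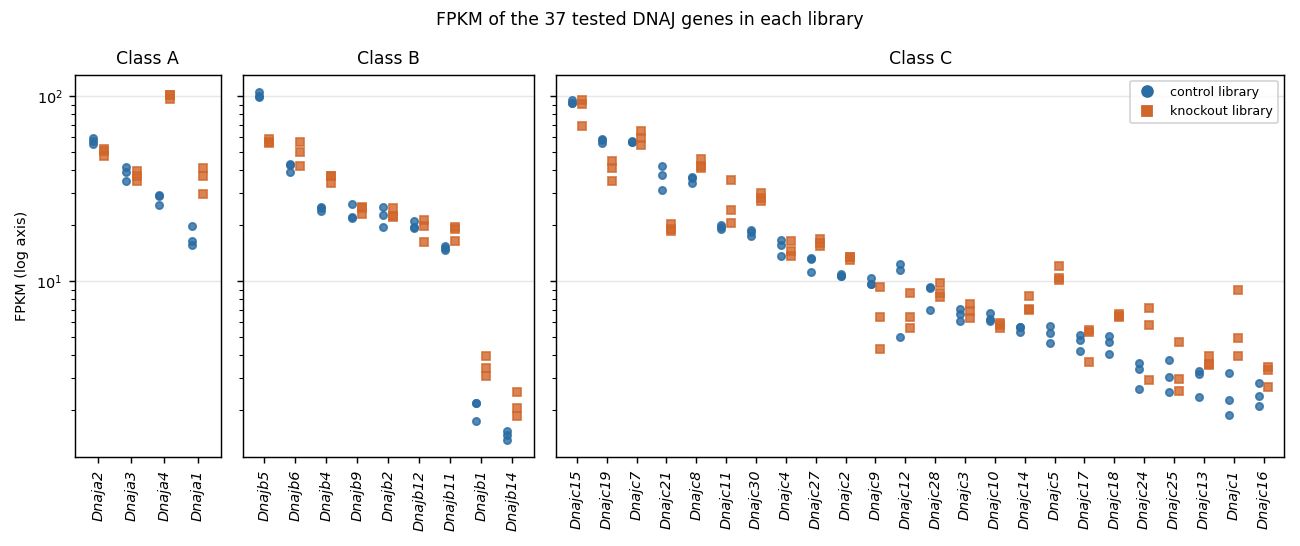
FPKM (log axis) of the 37 tested DNAJ genes in each library, with 1 panel per class, circles for the 3 controls and squares for the 3 knockouts, ordered by the control mean. Dnaja4 climbs to the top of class A at 99.6, Dnajb5 drops from 102 to 57.02, and Dnajc1, Dnajc9 and Dnajc24 show knockout values far apart from each other.

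Class B went both ways. Dnajb5 (ENSMUSG00000036052, chr4:42949814-42959425, plus strand), a cytosolic member known in heart cells as a partner of the histone deacetylase HDAC4, had the highest control level of all 45 genes. It read 99.3, 105 and 100.3 in controls and 56.2, 56.03 and 58.8 in knockouts. The drop of 1.78-fold was far larger than the spread in either group (log2 -0.83, SE 0.07, adjusted p = 4.64e-05), and over the alternatives it ranged from -1.04 to -0.75. Dnajb4 (ENSMUSG00000028035, chr3:152178511-152210302, minus strand), a cytosolic relative of Dnajb1, read 25.1, 24.9 and 23.9 in controls and 34.04, 36.96 and 36.9 in knockouts. The groups were clearly apart at a modest 1.46-fold (log2 0.54, SE 0.08, adjusted p = 0.00126).

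Dnajb1 (ENSMUSG00000005483, chr8:83608193-83612653, plus strand), the classic heat-inducible Hsp40, was among the lowest tested members. It read 2.19, 2.21 and 1.76 in controls and 3.94, 3.39 and 3.09 in knockouts, on 34 to 73 estimated fragments per library. All knockouts were higher (log2 0.73, SE 0.17, adjusted p = 0.0130), though quantile normalization ended the call (log2 0.41, adjusted p = 0.0888). Dnajb6 acts at the Z-disc and is the member mutated in a human limb-girdle muscular dystrophy. It read 42.9, 38.9 and 42.5 in controls and 41.8, 49.7 and 56.2 in knockouts, overlapping groups that did not pass the test (log2 0.24, 95% interval -0.02 to 0.50, adjusted p = 0.131, limma). Without knockout 1 the Dnajb6 difference was 0.35 with adjusted p = 0.0207. It was 0.04 after median-of-ratios scaling (adjusted p = 0.831, limma) and -0.02 in the scaled count columns (adjusted p = 0.929, limma). Dnajb2, a gene of human motor neuropathy, stood at 22.5 ± 2.77 and 23.1 ± 1.44 (log2 0.04, 95% interval -0.21 to 0.29).

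The heat shock element, the site bound by heat shock factors, is built of repeated GAA units in alternating orientation. A pair of facing units (GAANNTTC or TTCNNGAA, each its own reverse complement) was searched for in the 250 bases before each RefSeq start (for Dnaja4, Dnaja1, Dnajb4 and Dnajb6 the matches lie inside the GENCODE gene span), because Dnaja4, Dnaja1 and Dnajb4 moved in the same direction. RefSeq promoter sequences on GRCm38.p6 were matched by symbol for 37 of the 45 members. The rest were not searched, and they include the raised Dnajc5, Dnajc30, Dnajc18 and Dnajc2. Among the 37 matched members 6 held a pair (16.2%), where 14.5% of 27025 genes did, so the share is near the background. Of the 6, Dnaja4, Dnaja1 and Dnajb4 were raised in every alternative, Dnajc27 was called as deposited, and Dnajb6 and Dnajc10 were not called. The pair stood before 1 of 3 RefSeq starts of Dnaja1, 1 of 2 of Dnaja4, 1 of 2 of Dnajb4 and both of Dnajb6. Dnajb6 held 3 adjoining units (GAANNTTCNNGAA or TTCNNGAANNTTC), a longer form whose letters include the pair and which 0.514% of genes hold. The windows below are 30 bases long, read 5′ to 3′ on the strand of the gene, with the matching units in capitals, so that the spacing and neighbouring bases can be compared. They lie at chr9:54699458-54699487 and chr9:54699496-54699525 (Dnaja4), chr4:40722333-40722362 (Dnaja1), chr3:152193846-152193875 (Dnajb4, minus strand), chr5:29735843-29735872 (Dnajb6), chr2:80315273-80315302 (Dnajc10) and chr12:4082350-4082379 (Dnajc27).
Dnaja4, 90 bases before the start: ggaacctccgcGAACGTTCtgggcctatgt
Dnaja4, 52 bases before the start: gcctcctggcgGAACCTTCcgccggcgccg
Dnaja1, 124 bases before the start: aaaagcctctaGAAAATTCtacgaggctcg
Dnajb4, 14 bases before the start: gttcgttcgttcgctgTTCTAGAAagtaca
Dnajb6, 46 bases before the start: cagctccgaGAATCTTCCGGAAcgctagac
Dnajc10, 182 bases before the start: aacaattttatTTCTAGAAaactttaatta
Dnajc27, 213 bases before the start: cacccatcggtGAAGATTCcaggaaaaaaa

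Dnajb1, Dnajc1, Dnajc14 and Dnajc8 rose but held no such pair before any RefSeq start searched. The lowered Dnajc21, Dnajb5 and Dnajc19 held none either. The 150 bases before the upstream start of Dnajb1 (chr8:83608025-83608174, plus strand, GRCm38.p6) are printed so that they can be read against the matches in Dnaja4 and Dnaja1. No letters are in capitals because no motif was found.
Dnajb1: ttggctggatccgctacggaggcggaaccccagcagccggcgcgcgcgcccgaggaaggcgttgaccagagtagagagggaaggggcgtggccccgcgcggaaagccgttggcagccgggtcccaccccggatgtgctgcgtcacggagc

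Members of the endoplasmic reticulum mostly did not pass the test. Of 11 such genes (membership from general knowledge), 3 rose and 0 fell, with a median log2 difference of 0.28 against 0.21 for all genes. The raised share was 27.3%, near the 24.5% of all tested genes, of which 10.1% fell. At an unadjusted p under 0.05, 5 were higher and 0 lower, and the share of all genes at that threshold was not computed. Median-of-ratios scaling gave 1 higher and 1 lower, and quantile normalization 0 and 1. Dnajb9 and Dnajb11, both targets of the unfolded protein response, read 23.4 ± 2.42 and 24.3 ± 1.09 (log2 0.06, 95% interval -0.17 to 0.28) and 15.1 ± 0.425 and 18.4 ± 1.65 (log2 0.28, 95% interval 0.05 to 0.51, adjusted p = 0.0600, limma). The groups of Dnajb11 did not overlap, and it was called higher without knockout 3 (adjusted p = 0.0387, limma). Dnajc3, an inhibitor of the stress kinase PERK, read 6.61, 7.05 and 6.06 in controls and 7.56, 6.88 and 6.31 in knockouts, with overlapping groups (log2 0.07, 95% interval -0.21 to 0.36). Its window holds the endoplasmic reticulum stress element (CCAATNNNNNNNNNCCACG or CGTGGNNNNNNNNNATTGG), which 0.130% of genes hold and no other matched member does. It lies at chr14:118937821-118937850, plus strand, with the element in capitals.
Dnajc3, 105 bases before the start: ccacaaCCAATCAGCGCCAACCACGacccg

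The raised genes of this compartment were Dnajc1, Dnajc18 and Dnajc14. Dnajc1 (ENSMUSG00000026740, chr2:18195654-18392830, minus strand), a membrane protein that binds ribosomes, read 3.19, 2.28 and 1.88 in controls and 9.001, 4.95 and 3.93 in knockouts. Knockout 1 was far above the other knockouts, on 92 estimated fragments against 113 to 202 in the controls (log2 1.19, SE 0.31, adjusted p = 0.0184). The call ended without control 2, without control 3, without a filter and under quantile normalization (adjusted p up to 0.0733). In the scaled count columns, which carry no length term, the difference was 0.81. Mllt10 on the opposite strand covers 6.43% of the Dnajc1 exon bases and read 4.75 ± 1.02 and 4.42 ± 1.27. Dnajc18, another membrane member, read 5.05, 4.67 and 4.06 against 6.67, 6.43 and 6.51 (log2 0.50, SE 0.13, adjusted p = 0.0174), a call that median-of-ratios scaling (log2 0.30, adjusted p = 0.0690) and quantile normalization (log2 0.24, adjusted p = 0.130) each ended. Dnajc14, which aids the export of receptors to the cell surface, read 5.64, 5.33 and 5.65 against 7.07, 8.298 and 6.98 (log2 0.42, SE 0.12, adjusted p = 0.0298). The groups of both genes did not overlap, but the Dnajc14 call ended in 7 of 15 alternatives, which were both scalings, the block by replicate number and the fits without control 1, 2 or 3 or without knockout 2 (adjusted p up to 0.277). Ormdl2 on the opposite strand covers 17.0% of the Dnajc14 exon bases and read 0.806 to 1.25 FPKM.

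Mitochondrial members differed from one another. Dnajc19 (ENSMUSG00000027679, chr3:34056020-34081321, minus strand), part of the motor that pulls proteins into the matrix and a gene of human dilated cardiomyopathy with ataxia, read 58.3, 55.6 and 57.9 in controls and 34.6, 40.9 and 44.6 in knockouts. All knockouts were lower by a margin wider than their own spread (log2 -0.52, SE 0.10, adjusted p = 0.00483). A processed pseudogene, Dnajc19-ps, is annotated and could share reads. Its relative at the import channel, Dnajc15, read 91.7, 92.2 and 95.5 against 69.05, 95.2 and 90.6, overlapping groups in which knockout 2 lay inside the control range and knockout 1 was the lowest library (log2 -0.15, 95% interval -0.41 to 0.12). Dnajc15 was called lower after median-of-ratios scaling (log2 -0.35, adjusted p = 0.0457, limma). Dnajc30 (ENSMUSG00000061118, chr5:135064202-135065862, plus strand), a single-exon gene whose protein serves the repair of complex I and is mutated in human optic neuropathy, read 17.6, 18.9 and 18.4 against 27.96, 27.0 and 29.9. The groups were well apart (log2 0.63, SE 0.09, adjusted p = 9.06e-04). Its opposite-strand neighbour, listed as Wbscr22, covers 26.2% of its exon bases and read 15.1, 15.8 and 20.8 in controls and 15.99, 11.5 and 14.6 in knockouts. Dnajc11, a partner of the cristae-organising complex, read 19.2, 19.6 and 20.1 against 20.7, 24.3 and 35.01, and did not pass the test (log2 0.40, adjusted p = 0.104, limma). The groups of Dnajc11 did not overlap. It was called higher in the scaled count columns (log2 0.48, adjusted p = 0.00900, limma) and without knockout 1.

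At the ribosome and in the nucleus the members also split. Dnajc21 (ENSMUSG00000044224, chr15:10446756-10470516, minus strand), needed for maturation of the large ribosomal subunit, read 30.9, 37.4 and 41.7 in controls and 18.6, 20.4 and 19.1 in knockouts. The knockouts clustered tightly at about the same low level, below the whole spread of the controls (36.7 ± 5.41 and 19.4 ± 0.946, log2 -0.91, SE 0.12, adjusted p = 6.88e-04). Dnajc2, a chaperone at the ribosome's exit tunnel, read 10.7, 10.6 and 10.96 against 13.4, 13.5 and 13.03 (log2 0.30, SE 0.09, adjusted p = 0.0328). Although its groups did not overlap, that call ended in 9 of 15 alternatives, including both scalings, the scaled count columns, the block and every fit that dropped a library except control 3 (adjusted p up to 0.432). Dnajc8, found with splicing factors, read 34.0, 36.3 and 36.4 against 41.9, 40.6 and 45.6 (log2 0.26, SE 0.08, adjusted p = 0.0342). Its call ended in 8 of 15, including median-of-ratios scaling, where the difference was 0.06, the scaled count columns, no limma trend and every fit that dropped a library except knockout 1 (adjusted p up to 0.641). Dnajc9, a histone chaperone, read 9.63, 10.3 and 9.61 against 4.302, 6.39 and 9.26. All its knockouts were below the controls but far apart, on 26 to 109 estimated fragments (log2 -0.63, SE 0.24, adjusted p = 0.0735, limma). It was called lower in 4 of 15 alternatives, among them without knockout 3, both scalings and the scaled count columns.

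Of the 2 tested vesicle members Dnajc5 rose (ENSMUSG00000000826, chr2:181520485-181555133, plus strand). It encodes cysteine string protein, which keeps the exocytosis protein SNAP25 folded in nerve endings. It read 5.72, 4.64 and 5.22 in controls and 10.4, 10.2 and 12.03 in knockouts, with no overlap (5.19 ± 0.541 and 10.9 ± 1.02, log2 1.05, SE 0.13, adjusted p = 5.44e-04). Its lowest and highest differences over the alternatives were 0.84 and 1.12. Schwann cell and nerve myelin markers rose in the same libraries, as given above, and their part was not tested. Dnajc13, of endosomal sorting, read 2.93 ± 0.490 and 3.68 ± 0.228 and did not pass the test (log2 0.33, adjusted p = 0.162, limma). The auxilin gene Dnajc6, which uncoats clathrin vesicles in brain, was near 0, with 0 to 2 estimated fragments per library. Gak, the auxilin of other tissues, read 4.48 ± 0.513 and 5.60 ± 1.78 and was not called.

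Other class C members were abundant without passing the test, or varied widely. Dnajc7, a cytosolic member that links Hsp70 and Hsp90, read 56.2, 56.3 and 57.4 in controls and 59.6, 54.4 and 64.6 in knockouts, overlapping groups (log2 0.07, 95% interval -0.12 to 0.25). Dnajc27, which carries a GTPase domain of the Rab type, read 13.2, 13.3 and 11.3 against 15.98, 16.8 and 15.5. Its groups did not overlap (log2 0.36, SE 0.10, adjusted p = 0.0295), but the call ended in 8 of 15 alternatives, which were both scalings, no limma trend and each fit with 5 libraries that kept knockout 1 (adjusted p up to 0.194). Dnajc24, of diphthamide synthesis, read 3.36, 3.61 and 2.60 against 5.82, 7.12 and 2.91, with knockout 3 at control level (log2 0.63, adjusted p = 0.141, limma). Without knockout 3 its difference was 1.003 (adjusted p = 0.00851). Dnajc12, a helper of the aromatic amino acid hydroxylases, read 11.5, 12.4 and 5.001 against 5.57, 8.63 and 6.395, with control 3 the lowest of the 6 libraries. Without control 3 it was called lower (log2 -0.81, adjusted p = 0.0234). The remaining tested members, Dnajb12, Dnajb14, Dnajc4, Dnajc10, Dnajc16, Dnajc17, Dnajc25 and Dnajc28, were not called, with log2 differences between -0.14 for Dnajc10 and 0.51 for Dnajb14. Of these, Dnajc10 was called lower after median-of-ratios scaling (log2 -0.34, adjusted p = 0.0383, limma) and quantile normalization (log2 -0.38, adjusted p = 0.0262). Dnajb14 was called higher in the scaled count columns (log2 0.56, adjusted p = 0.0164, limma) and with no limma trend.

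The 8 untested members were close to or at 0, with means over all libraries of at most 0.0505 FPKM, while the lowest tested member, Dnajb14, averaged 1.81. Dnajb7, Dnajb8, Dnajc5b and Dnajc5g were listed at 0 in all 6 libraries, and Dnajb3, Dnajb13, Dnajc6 and Dnajc22 had at most 3 estimated fragments in any library. Dnajb3, Dnajb7, Dnajb8 and Dnajb13 are known mainly from testis. No fold is given for these genes, and their values allow only that they were not detectable or barely so at this depth.

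The partners of the DNAJ proteins were compared through lists written from general knowledge. Of all tested genes 24.5% were called higher and 10.1% lower as deposited. Median-of-ratios scaling gave 14.8% and 17.3%, and quantile normalization 14.7% and 14.5%. All counts of the partner lists stand beside these shares, and no list was tested as a set. Some genes are counted in more than 1 list, so the lists are not independent. Bag3, Hspa8 and Stub1 recur in the Z-disc list and Hspa5 and Hyou1 in the endoplasmic reticulum list. Hspa9, Grpel1 and Grpel2 recur in the mitochondrial list. The share of all genes at an unadjusted p under 0.05 was not computed. Of 9 Hsp70 genes, 5 rose and 0 fell (55.6% and 0%, median log2 0.72 against 0.21 for all genes). Median-of-ratios scaling gave 4 and 1, and quantile normalization 5 and 0. At an unadjusted p under 0.05, 7 were higher and 0 lower in the deposited values. The inducible Hspa1b and Hspa1a read 1.89 ± 0.167 and 9.07 ± 0.371 (adjusted p = 1.23e-05, limma) and 2.20 ± 0.306 and 8.97 ± 1.65, values that are uncertain because these genes are near-identical copies. Hspa1l rose from 14.7 ± 0.502 to 24.3 ± 2.85, and the constitutive Hspa8 from 674 ± 13.4 to 852 ± 40.3, a call that ended under median-of-ratios scaling (adjusted p = 0.125, limma). Of 13 nucleotide exchange factors, which release ADP from Hsp70, 6 rose and 1 fell (46.2% and 7.69%, median 0.27). The counts were 4 and 3 after median-of-ratios scaling and 5 and 3 after quantile normalization. Those with the smallest p were Bag3 (54.5 ± 1.95 to 174 ± 16.1), Hsph1 (27.5 ± 0.709 to 45.5 ± 1.19), Hspa4l (1.39 ± 0.150 to 3.45 ± 0.304) and Hyou1 (3.63 ± 0.508 to 6.26 ± 0.521), all raised. The J proteins under other symbols that were compared, Sec63, Hscb and Gak, were not called by limma, also at an unadjusted p under 0.05 (0 of 3). In the scaled count columns Sec63 was called higher (log2 0.99 in place of 0.41, adjusted p = 0.0487, limma).

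Of 14 genes of Hsp90 and its co-chaperones, 4 rose and 4 fell (28.6% each way, median 0.07). The counts were 2 and 5 after median-of-ratios scaling and 3 and 4 after quantile normalization. The inducible Hsp90aa1 rose from 35.003 ± 3.54 to 227 ± 11.6, the constitutive Hsp90ab1 rose from 351 ± 1.15 to 538 ± 20.6, Fkbp5 fell from 11.7 ± 1.71 to 7.0005 ± 0.374 and the ubiquitin ligase Stub1, which tags Hsp70 clients, fell from 38.9 ± 3.50 to 30.3 ± 0.529, a call that ended in the scaled count columns (adjusted p = 0.0688, limma). The heat shock factor list also holds Hsbp1, which encodes a protein that binds the factors and is not itself a factor. Of its 4 tested genes limma called 0 as deposited, and at an unadjusted p under 0.05 Hsf2 was higher and 0 were lower. Hsf1, the main heat shock factor, read 16.8 ± 0.207 and 15.2 ± 1.62 (log2 -0.15, adjusted p = 0.282), and was called lower under median-of-ratios scaling (adjusted p = 0.0253) and quantile normalization (adjusted p = 0.0496).

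Of 22 tested genes of folding and the unfolded protein response in the endoplasmic reticulum, 13 rose and 1 fell (59.1% and 4.55%, median 0.51). The counts were 7 and 2 after median-of-ratios scaling and 6 and 1 after quantile normalization. Hsp90b1 rose from 38.3 ± 0.640 to 55.6 ± 3.27, Calr from 65.3 ± 2.39 to 89.4 ± 1.07, Pdia3 from 18.7 ± 1.63 to 28.5 ± 0.697 and Manf from 21.7 ± 3.12 to 33.1 ± 1.57. The 1 lowered gene was Herpud1 (64.4 ± 2.13 to 55.4 ± 1.99), a call that quantile normalization ended (adjusted p = 0.121, limma). Among the 8 not called was Hspa5, the Hsp70 of this compartment (51.9 ± 3.99 and 54.2 ± 3.76, adjusted p = 0.616, limma). Of 15 genes of mitochondrial import and matrix folding, 4 rose and 2 fell (26.7% and 13.3%, median 0.15), shares near those of all genes. The counts were 1 and 3 after median-of-ratios scaling and 3 and 1 after quantile normalization. Timm23, the channel at which the Dnajc19 motor works, fell from 153 ± 6.82 to 116 ± 9.82, while the disaggregase Clpb rose from 17.0 ± 3.62 to 28.1 ± 1.903, Dnlz from 11.2 ± 0.737 to 15.04 ± 1.14 and Hspd1 from 129 ± 8.21 to 156 ± 12.2. Median-of-ratios scaling ended the calls of Dnlz (adjusted p = 0.0868, limma) and Hspd1 (log2 0.07). Of 7 genes of chaperone-assisted autophagy at the Z-disc, 4 rose and 1 fell (57.1% and 14.3%, median 0.34). The counts were 3 and 2 after median-of-ratios scaling and 5 and 1 after quantile normalization. Filamin C (Flnc), a client of that pathway, rose from 39.3 ± 4.59 to 113 ± 5.91 and Synpo2 from 136 ± 7.78 to 192 ± 6.89. Of 10 tested partners in clathrin uncoating and exocytosis, 4 rose and 1 fell (40% and 10%, median 0.25). The counts were 3 and 3 after median-of-ratios scaling and 4 and 2 after quantile normalization. Clathrin light chain Cltb fell from 73.6 ± 2.85 to 44.9 ± 5.74, and the adaptor subunit Ap2b1 and Snap23 rose, from 5.06 ± 0.638 to 8.94 ± 0.487 and from 8.85 ± 0.553 to 13.8 ± 1.44. In the scaled count columns the Snap23 difference was 0.29 in place of 0.63 and the call ended (adjusted p = 0.182, limma). A further adaptor subunit, Ap2a1, rose from 16.1 ± 1.69 to 22.2 ± 0.815.

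**Figure D5:**
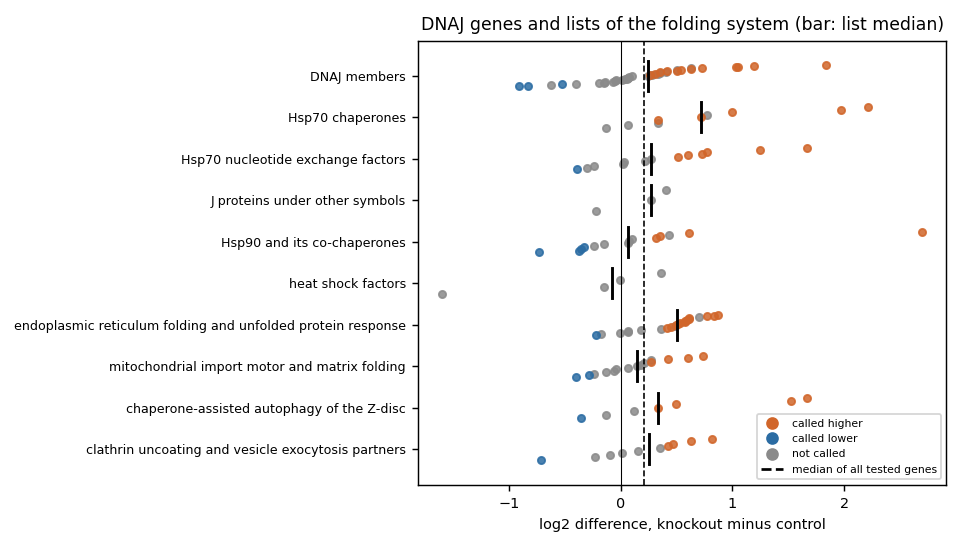
Log2 difference (knockout minus control) of each tested gene in the DNAJ family and in 9 lists of its partners, coloured by call, with a bar at each list's median and a dashed line at the median of all tested genes (0.21). The DNAJ bar at 0.24 lies near the dashed line, the Hsp70 bar at 0.72 and the endoplasmic reticulum bar at 0.51 lie to its right.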

How the data were processed

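Total RNA of powdered quadriceps was depleted of ribosomal RNA and made into stranded libraries, per the labels' protocols. Reads were trimmed with cutadapt 1.9.3, aligned with HISAT2 2.0.4 to mm10 and quantified with Cufflinks and Cuffdiff, per the submitters' processing notes; the versions of the last pair, the gene annotation, strand use in counting and library scaling are not stated in any source read here. FPKM are given in the deposited table per library, as normalised by the authors to transcript length and depth. Its columns headed as counts hold a scaled signal that the authors deposited. Divided by 1 constant per column, 92.6% to 94.2% of values above 0 were whole within 0.1, too few for a count test, and the quotients are called estimated fragments.

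Rows of 1 symbol were summed (79 symbols), 1 emptied line was left out, and a mean FPKM of 0.5 or more was required for testing. After adding 0.1 FPKM as pseudocount, log2 values were compared with limma 3.58.1 in R 4.3.3 (mean-variance trend), so log2 differences of low genes are understated. Folds are ratios of mean FPKM without the pseudocount. Positions are from GENCODE M21. Genes in full detail are the called members with an absolute log2 difference of at least 0.58, the 3 most abundant per class and those whose call an alternative ended; from each partner list up to 4 genes with the smallest p are named. Some others were chosen after their values were seen, and 1 gene of the partner lists is not reported here. The members, lists and tests were chosen with earlier results of these data known. Alternatives covered the pseudocount, filter, scaling, limma trend, a block by replicate number and leaving out each library.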

Additional observations from a re-analysis of the deposited data

How the results depend on the processing

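Of the DNAJ members 12 were higher and 3 lower as deposited. Median-of-ratios scaling gave 7 higher and 7 lower (class A 1 lower, class C 3 higher and 5 lower), with 1724 genes higher and 2018 lower over the whole table. After quantile normalization 6 rose and 5 fell (class B 1 higher, class C 3 higher and 4 lower), with 1715 genes higher and 1696 lower. Leaving out each library in turn gave 7 to 13 members higher and 3 to 4 lower, with 2 in every case for class A higher and 0 lower, 2 to 3 for class B higher and 1 lower, and 3 to 8 for class C higher and 2 to 3 lower. Over all genes these fits gave 2019 to 2830 higher and 815 to 1103 lower. Fewer samples per fit leave less power, yet some calls began in these fits, as for Dnajb6 without knockout 1 and Dnajc24 without knockout 3. The cause of these and the other shifts was not tested. Fbxw7 stayed lower, at -0.72 to -0.68 without single libraries and -0.89 under median-of-ratios scaling. With a replicate block 10 members rose and 3 fell (Dnajc2 and Dnajc14 were the calls that ended); the numbers pair nothing that the labels state, and deviations of same-numbered libraries correlated at -0.07, 0.20 and 0.18. No DNAJ call changed direction in the 15 alternatives. The shallowest library values of tested members were 12 estimated fragments for Dnajc24 and 17 for Dnajc12 and Dnajc17.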
